A study of Mus musculus with 18 samples.

Results

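NMDA receptors are the glutamate-gated cation channels of excitatory synapses that need glutamate and a co-agonist, glycine or D-serine, to open, and that pass calcium once depolarisation has lifted a magnesium block. Each receptor is a tetramer with obligatory GluN1 subunits, encoded by Grin1, and GluN2 subunits (Grin2a, Grin2b, Grin2c, Grin2d) or GluN3 subunits (Grin3a, Grin3b). Grin2b is the subunit known for the young forebrain, Grin2a for the maturing synapse, Grin2c for cerebellar granule cells and astrocytes, and Grin2d for diencephalon and brainstem. The 7 genes were taken by symbol from the 53468 genes of the count table.

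mRNA was sequenced from dissected forebrain, midbrain and hindbrain of 3 wild-type (WT) and 3 Fmr1CRE mice at P25, 18 libraries in all. Fmr1CRE mice carry a CRISPR/Cas9 knock-in of a single-base change in a cis-regulatory element of Fmr1, on a C57BL/6 background. WT mice were from the same litter and carry no edited allele, and nothing in the labels describes any treatment of either genotype. The 3 mice of a genotype were separate animals, and 1 library was made per mouse and region. Several lines were established in the study, and the line that supplied these mice is not given in the sources used here.

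Each library held between 22455512 and 28061185 counts. In the summed markers of the labelled tissues, 10 forebrain neuron genes ran from 617 to 1001 CPM (counts scaled to library size) in forebrain, from 290.2 to 543 CPM in midbrain and from 84.9 to 131 CPM in hindbrain. The 11 measured hindbrain and cerebellum genes ran from 1.94 to 21.9 CPM in forebrain, from 129 to 381 CPM in midbrain and from 481 to 1048 CPM in hindbrain, and the midbrain libraries thus held markers of both neighbours. Within forebrain this hindbrain and cerebellum sum reached 21.9 CPM in Fmr1CRE and 4.35 CPM in WT libraries. Hoxa4 was at 0 in all 6 forebrain libraries. The 10 midbrain genes summed to 3.40 to 20.5 CPM in forebrain, 62.7 to 140 in midbrain and 21.5 to 42.4 in hindbrain. In forebrain they reached 20.5 CPM in Fmr1CRE and 12.7 CPM in WT libraries. The part of these markers in the forebrain genotype values was not tested. Oligodendrocyte markers summed to between 12330 and 15578 CPM in forebrain and between 28438 and 40008 CPM in hindbrain, and astrocyte markers to between 1051 and 1611 and between 1610.5 and 2425 CPM. Choroid plexus markers reached 870 CPM in forebrain and 3226 CPM in hindbrain, and blood markers 881 and 1593 CPM. In bulk tissue, fewer cells of a type and less RNA per cell cannot be told apart, and the part of cell composition in the regional differences given here was not tested. Fmr1 itself had 75.8 ± 2.57 CPM in Fmr1CRE and 77.7 ± 7.53 CPM in WT forebrain (mean ± SD, n = 3 each). In replicate 3 the forebrain libraries did not follow midbrain and hindbrain in the direction of the difference between the genotypes. Regions were compared only with each other, so whether any label is at fault, and which, cannot be told. Of 12 genes that differed by more than 2 on the log2 scale between the Fmr1CRE and WT mice of replicate 3 in both midbrain and hindbrain, 7 differed the opposite way by more than 1 in forebrain and 1 the same way, against 2 and 7 of 12 for replicate 1 and 5 and 5 of 12 for replicate 2. Results without replicate 3 are given where a call is lost. The per-transcript sets were joined to count columns by their values, which placed 18 of 18 on the column of their own name but only 2 of 18 on the sample record they are attached to. Each set was within 0.18% of its joined column, by summed absolute difference over genes as a percent of the column's total. The next nearest column was at least 9.24% away.

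The Grin1 gene (ENSMUSG00000026959, chr2:25291181-25319187, minus strand, GRCm38) is shown by its alternatively spliced coding segments, because their use differed between regions in 6 of 6 mice. N1 is a cassette exon of the extracellular amino-terminal domain, which is known to alter the receptor's response to protons and polyamines. C1 is a cassette exon of the intracellular tail, and C2 and C2' are alternative tail ends read from different acceptor sites of the last exon. The sequences are from GENCODE M21 transcripts, in the sense of the gene. Capitals mark the segment itself and lower case the 12 coding bases on either side, or before it for the ends, which close with their stop codon.
N1 (chr2:25311343-25311405, 63 bases, 21 codons): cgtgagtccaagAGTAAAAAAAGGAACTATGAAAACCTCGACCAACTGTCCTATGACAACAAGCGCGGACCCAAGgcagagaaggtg
C1 (chr2:25294438-25294548, 111 bases, 37 codons): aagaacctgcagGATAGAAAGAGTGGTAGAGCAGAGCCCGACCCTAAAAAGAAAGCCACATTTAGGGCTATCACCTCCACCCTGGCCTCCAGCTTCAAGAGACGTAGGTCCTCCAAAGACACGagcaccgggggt
C2 (chr2:25292368-25292484, 117 bases with the stop codon): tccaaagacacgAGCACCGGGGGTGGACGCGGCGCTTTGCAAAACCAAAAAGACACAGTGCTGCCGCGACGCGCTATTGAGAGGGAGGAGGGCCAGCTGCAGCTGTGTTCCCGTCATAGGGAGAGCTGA
C2' (chr2:25292060-25292128, 69 bases with the stop codon): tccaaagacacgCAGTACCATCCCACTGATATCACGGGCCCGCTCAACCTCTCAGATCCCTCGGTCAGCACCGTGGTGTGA

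Grin1 messages carried N1 less often and C1 more often towards the front of the brain. The share of Grin1 with a segment was taken as the percent of the summed per-length level (TPM, the estimated share of transcripts) of the 8 full-length coding transcripts. These transcripts held between 3055 and 10012 reads in a library. That was 85.5% to 92.5% of the gene's reads but 32.1% to 48.1% of its TPM. N1 was on 18.0% to 31.5% of Grin1 in forebrain (median 24.4%), on 30.3% to 41.5% in midbrain (median 38.8%) and on 54.0% to 67.8% in hindbrain (median 58.7%), so that the hindbrain libraries did not overlap either other region. C1 ran the other way, from 59.2% to 72.0% in forebrain (median 63.9%) and 41.9% to 54.6% in midbrain (median 44.4%) to 12.99% to 22.2% in hindbrain (median 15.4%). All 3 regions were separate for C1. The C2' end was on 33.7% to 51.2% in forebrain, 55.4% to 63.8% in midbrain and 57.0% to 68.9% in hindbrain, and the midbrain and hindbrain libraries overlapped.

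Within mice, forebrain minus hindbrain was -35.3 ± 8.64 percentage points for N1 (mean ± SD of 6 within-mouse differences), 48.7 ± 7.06 points for C1 and -22.8 ± 7.91 points for C2'. Midbrain minus hindbrain was -22.5 ± 5.45 points for N1, 30.0 ± 4.93 points for C1 and -5.48 ± 3.56 points for C2'. Forebrain minus midbrain was -12.8 ± 5.33, 18.7 ± 6.86 and -17.3 ± 7.21 points in the same order. All 9 region differences had 1 direction in 6 of 6 mice, and an exact two-sided sign-flip permutation test over 6 mice gave p = 0.0312 for each, the smallest that 6 mice allow, with an adjusted p of 0.0312 over the 9 tests. With the sets grouped by their sample records in place of the join, the N1 difference between forebrain and hindbrain was 2.95 points and the C1 difference -1.69 points, with an adjusted p of 0.723 for both (exact sign-flip permutation test), so the result rests on the join. Without replicate 3 the N1 difference was -34.2 points and the C1 difference 48.8 points, in 4 of 4 mice, at p = 0.125 by the exact test, the smallest that 4 mice allow. These segment shares were defined after the transcript sets had been seen.

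The leading Grin1 transcript changed with the region. Grin1-201, which has C1 and the C2 end but not N1, made up 38.1% to 49.9% of full-length Grin1 in forebrain, 21.4% to 27.5% in midbrain and 5.38% to 17.1% in hindbrain. Grin1-207, which has N1 and the C2' end but not C1, made up 18.0% to 29.0% in forebrain, 30.3% to 41.5% in midbrain and 54.0% to 63.4% in hindbrain. Grin1-202, with the C2 end and neither cassette, had medians of 12.02%, 15.3% and 24.2% in that order, and Grin1-206, with C1 and the C2' end, 19.9%, 21.1% and 5.31%. Grin1-208 was at 0 in all 18 libraries. Reads were 50 bases long and single-end, so no read spanned N1 and the tail, and which N1 state went with which tail is salmon's estimate. Per transcript over all Grin1 transcripts with any level, 11 of 39 region tests had the smallest p that 6 mice allow and 0 of 39 passed after adjustment.

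**Figure D1:**
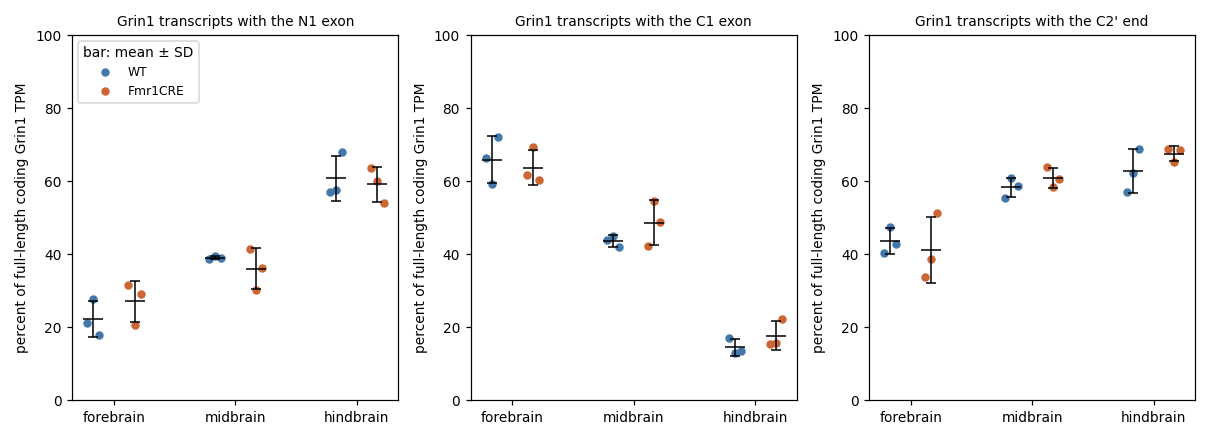
Percent of full-length coding Grin1 TPM on transcripts with the N1 exon, the C1 exon and the C2' end, by region. Points are libraries, coloured by genotype, and bars are the mean ± SD of 3. N1 climbs from forebrain (18.0% to 31.5%) to hindbrain (54.0% to 67.8%) while C1 falls from 59.2% to 72.0% to 12.99% to 22.2%, and the genotypes overlap in every region.

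Between genotypes the segment shares did not differ beyond their spread. In forebrain N1 was on 27.1% ± 5.63 of Grin1 in Fmr1CRE and 22.2% ± 4.90 in WT mice, and C1 on 63.7% ± 4.81 and 65.8% ± 6.42 (mean ± SD, n = 3 each). The exact permutation p of the 9 comparisons ran from 0.3 to 0.7, in a design where 3 against 3 cannot go below 0.1.

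At the level of whole genes the deposited counts are not sums of reads. They are per-gene TPM scaled back by a mean effective length, so a short transcript with few reads can carry much of a gene's count. For Grin2b (ENSMUSG00000030209, chr6:135713233-136173511, minus strand), the 241-base processed transcript Grin2b-207 has an effective length of 17 bases. It took between 0 and 59.5 reads in a library, at most 1.3% of the gene's reads, but up to 85.9% of its TPM. The full-length Grin2b-201, of 24060 bases, held 95.1% to 99.7% of the reads and 4.59% to 39.5% of the TPM. The ratio of the deposited Grin2b count to its summed reads accordingly ran from 0.49 to 4.07, the highest being a forebrain library, Fmr1CRE replicate 1, with 18663 counts and 4580 reads. For Grin2a, Grin2c and Grin3a it lay between 0.92 and 1.10, for Grin2d between 0.88 and 1.19, for Grin1 between 0.88 and 1.3 and for Grin3b, with few reads, between 0.71 and 1.67. Each comparison was therefore repeated on summed reads, an alternative chosen after seeing the data, and both values are given where they part.

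**Figure D2:**
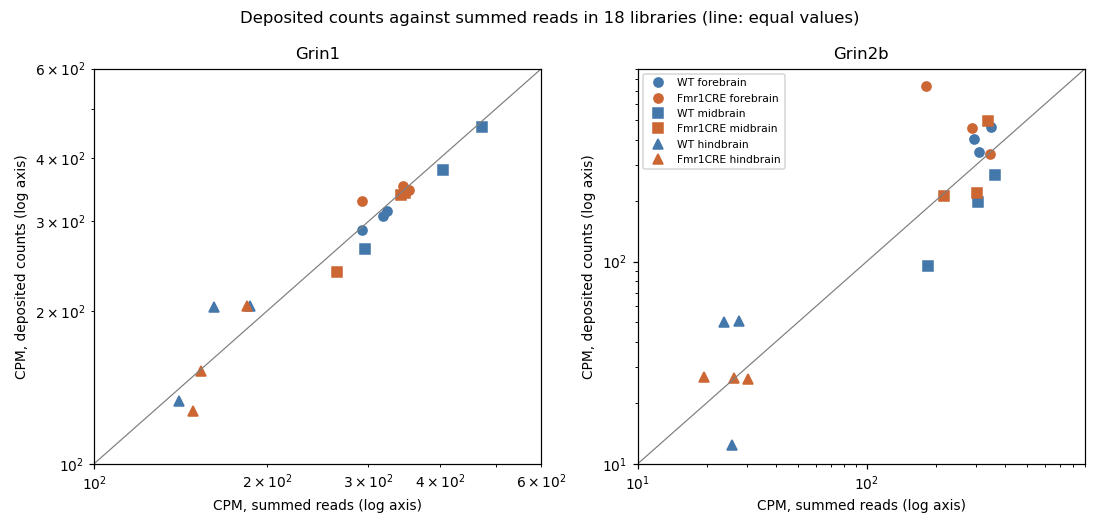
CPM from deposited counts (vertical) against CPM from summed reads (horizontal) for Grin1 and Grin2b, both on log axes, 1 point per library, colour for genotype and shape for region. Grin1 points lie near the line of equal values, whereas Grin2b points leave it by as much as a count-to-read ratio of 4.07 in Fmr1CRE forebrain replicate 1 and 0.49 in the hindbrain.

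Forebrain and hindbrain differed in most of the 7 genes. Grin1, Grin2a and Grin2b were higher in forebrain and Grin2c and Grin3b lower, by edgeR's quasi-likelihood test with Benjamini-Hochberg adjustment, while Grin2d and Grin3a did not pass. That is 5 of 7, beside 51.7% of all 20363 genes tested, with 3 higher (26.4% of all genes) and 2 lower (25.3%). In 4 of the 7 no library of one region overlapped the other, which held for 27.7% of all genes. Midbrain and hindbrain differed in 7 of 7, beside 49.1% of all genes, with 5 higher in midbrain (25.1%) and 2 lower (24%). Forebrain and midbrain differed in 3 of 7, beside 19.3%, with 0 higher (9.38%) and 3 lower (9.96%). Of the 7 genes, 2 did not overlap between forebrain and midbrain (10.5% of all genes) and 5 between midbrain and hindbrain (26.9%). Scaling by total counts in place of TMM moved the split of called genes between forebrain and hindbrain from 5383 higher and 5147 lower to 4349 and 6819, and between forebrain and midbrain from 1911 and 2028 to 1391 and 2926, with the median of all genes at -0.15 and -0.04 on the log2 scale. On summed reads 60.7%, 28.2% and 58.3% of all genes were called in forebrain over hindbrain, forebrain over midbrain and midbrain over hindbrain, and the calls of the 7 genes were the same as on counts. Regions that came from 1 mouse were not tied together in these tests.

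**Figure D3:**
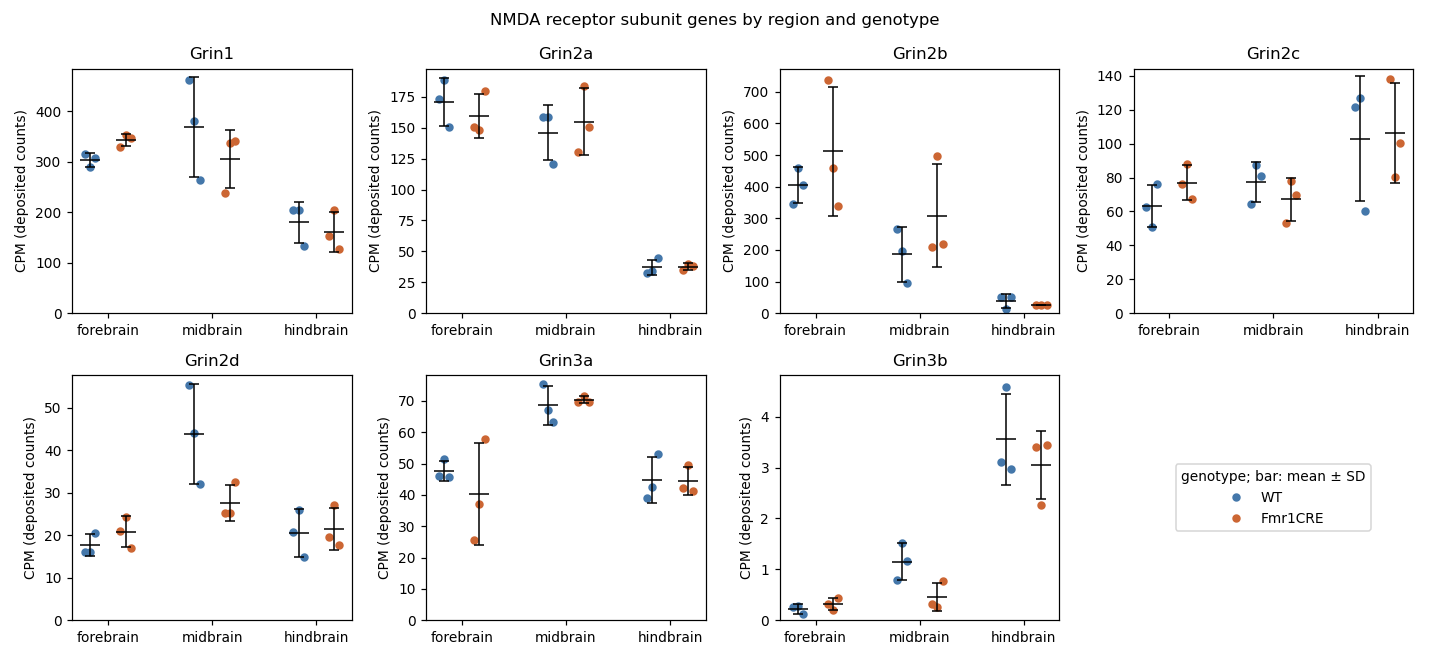
CPM from deposited counts for each of the 7 genes by region, with 1 point per library, colour for genotype and bars for the mean ± SD of 3. Grin2a and Grin2b are lowest in hindbrain, Grin3b is highest there, Grin2d and Grin3a peak in midbrain, and the genotypes overlap in most panels.

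Grin1, the obligatory subunit, had 288 to 353 CPM in forebrain (median 322), 239 to 461 CPM in midbrain (median 339) and 127 to 204 CPM in hindbrain (median 178). All hindbrain libraries were below all others. The difference from hindbrain was a log2 fold change of 0.92 ± 0.15 (SE) in forebrain, adjusted p = 9.44e-05, and of 0.98 ± 0.15 in midbrain, adjusted p = 7.16e-05. Forebrain and midbrain differed by -0.06, with a 95% interval from -0.37 to 0.26.

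Grin2a (ENSMUSG00000059003, chr16:9567898-9995560, minus strand), the GluN2A subunit of mature synapses, had 148 to 188 CPM in forebrain (median 162), 121 to 184 CPM in midbrain (median 154) and 32.8 to 44.4 CPM in hindbrain (median 36.6). The hindbrain libraries were again apart from the rest, and forebrain and midbrain overlapped. The forebrain was 4.41-fold above the hindbrain, log2 fold change 2.14 ± 0.11, adjusted p = 2.86e-10, and the midbrain 4.02-fold, adjusted p = 1.45e-09.

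Grin2b, the GluN2B subunit, showed the widest regional range. By deposited counts it had 339 to 737 CPM in forebrain (median 432), 95.2 to 498 CPM in midbrain (median 214) and 12.3 to 51.0 CPM in hindbrain (median 26.7). By summed reads it had 182 to 349 CPM in forebrain (median 302), 185 to 364 CPM in midbrain (median 304) and 19.6 to 30.4 CPM in hindbrain (median 26.2). Hindbrain was apart from the other regions on both scales. The log2 fold change of forebrain over hindbrain was 3.84 ± 0.37 by counts, adjusted p = 3.03e-07, and 3.52 ± 0.19 by reads, adjusted p = 1.41e-10. Midbrain over hindbrain gave 2.92 ± 0.35 and 3.48 ± 0.19. Forebrain over midbrain gave 0.92 ± 0.33 by counts, adjusted p = 0.062, and 0.04 ± 0.17 by reads, with an interval from -0.32 to 0.40. By counts that value passed the threshold with DESeq2, adjusted p = 0.0344, without a filter on low counts, with at least 10 counts in every library, and without Fmr1CRE mouse 2, adjusted p = 0.0427.

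Grin2c (ENSMUSG00000020734, chr11:115249169-115267243, minus strand), the GluN2C subunit, had 50.8 to 87.9 CPM in forebrain (median 71.7), 53.2 to 87.2 CPM in midbrain (median 74.0) and 60.3 to 138 CPM in hindbrain (median 111). The regions overlapped. Both front regions were below the hindbrain, the forebrain by a log2 fold change of -0.58 ± 0.18, adjusted p = 0.0134, and the midbrain by one of -0.54 ± 0.18, adjusted p = 0.0227. The forebrain call was lost without Fmr1CRE mouse 1 or 3 or WT mouse 1 or 2, with adjusted p between 0.0542 and 0.115, and the midbrain call was lost without the same mice, with adjusted p between 0.0552 and 0.167. Without Fmr1CRE mouse 1 the midbrain log2 difference was -0.35. With the mouse as a block the midbrain difference was -0.52, adjusted p = 0.0566, and in WT mice alone it was -0.42, adjusted p = 0.231.

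Grin2d (ENSMUSG00000002771, chr7:45831883-45878378, minus strand), the GluN2D subunit, had 16.1 to 24.3 CPM in forebrain (median 18.8), 25.1 to 55.4 CPM in midbrain (median 32.2) and 14.8 to 27.2 CPM in hindbrain (median 20.1). Every midbrain library was above every forebrain library. Forebrain was lower than midbrain by a log2 fold change of -0.86 ± 0.17, adjusted p = 0.00178, and midbrain higher than hindbrain by 0.73 ± 0.16, adjusted p = 0.00171. Forebrain and hindbrain differed by -0.13, interval -0.48 to 0.22.

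Grin3a (ENSMUSG00000039579, chr4:49661611-49845744, minus strand) encodes GluN3A, which lowers the calcium flow of receptors that contain it. It had 25.6 to 57.9 CPM in forebrain (median 45.8), 63.3 to 75.5 CPM in midbrain (median 69.8) and 38.9 to 53.0 CPM in hindbrain (median 42.4). The midbrain libraries were above all others. The log2 fold change was -0.67 ± 0.14 for forebrain over midbrain, adjusted p = 0.00432, and 0.64 ± 0.14 for midbrain over hindbrain, adjusted p = 0.00172. Forebrain and hindbrain differed by -0.03, interval -0.33 to 0.28.

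Grin3b (ENSMUSG00000035745, chr10:79970715-79977190, plus strand), whose GluN3B product is known from motor neurons, was near the floor. It had 3 to 10 deposited counts in forebrain libraries, 7 to 37 in midbrain and 63 to 139 in hindbrain, which came to 0.117 to 0.426 CPM, 0.266 to 1.51 CPM and 2.27 to 4.59 CPM. Only the hindbrain libraries stood apart from both others. The log2 fold change was -3.64 ± 0.31 for forebrain over hindbrain, adjusted p = 7.18e-08, -2.19 ± 0.28 for midbrain over hindbrain and -1.45 ± 0.32 for forebrain over midbrain, adjusted p = 0.00516. On summed reads these were -3.17 ± 0.26, adjusted p = 2.32e-08, -1.92 ± 0.23 and -1.25 ± 0.29, adjusted p = 0.00398. By counts forebrain over midbrain was lost without replicate 3, log2 fold change -1.13, adjusted p = 0.0516. The longest overlap of a Grin3b exon with a Tmem259 exon on the other strand was 399 bases. Opposite-strand overlaps, each again the longest between single exons, were also found for other members. These were Grin1 with Grin1os (165 bases), Grin2d with Gm45441 (233), Grin2c with Gm25837 (91) and Grin2b with Gm14329 (143), Gm22892 (86) and Gm26653 (49). Whether strand was used in counting is not given in the sources used here, so without strand such reads cannot be told apart.

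In the Fmr1CRE mice alone 0 of 7 genes passed between forebrain and midbrain by edgeR's quasi-likelihood test, with 527 of 19434 genes called in all. Grin2d then had a log2 fold change of -0.41, adjusted p = 0.254, Grin3a -0.81, adjusted p = 0.0965, and Grin3b -0.51, adjusted p = 0.564. Between midbrain and hindbrain these mice alone gave Grin2d 0.33, adjusted p = 0.241, and Grin3a 0.63, adjusted p = 0.0759 (edgeR). There 5 of 7 genes passed, beside 4847 of 19434 genes called in all. Whether these regional differences differed between genotypes is the interaction test given with the genotype comparisons.

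**Figure D4:**
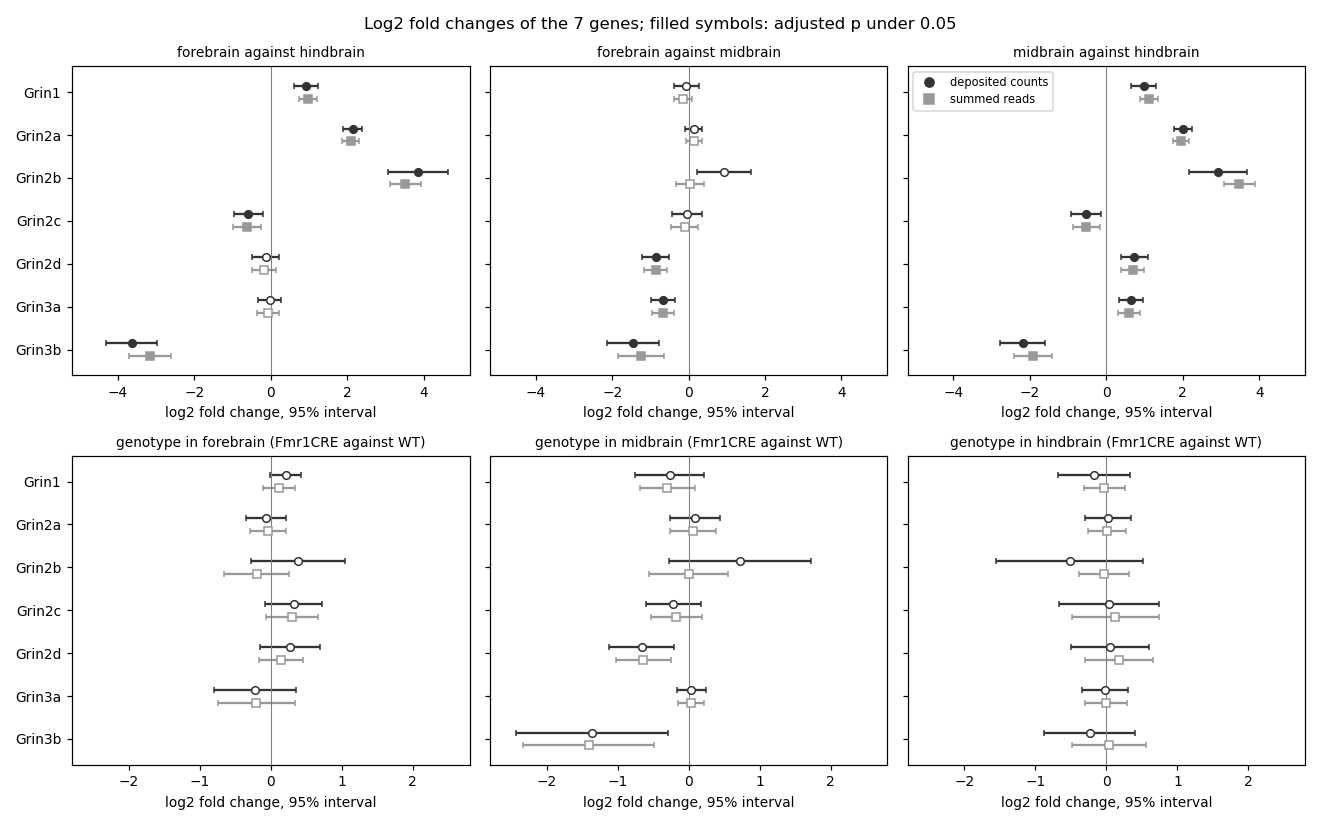
Log2 fold change (horizontal) with its 95% interval for each gene in the 3 region comparisons (top) and the Fmr1CRE against WT comparisons (bottom), for deposited counts (circles) and summed reads (squares). Filled symbols have an adjusted p under 0.05. The top panels hold filled symbols on both sides of 0, except forebrain against midbrain, where all filled symbols lie below 0. The bottom panels hold none, and Grin3b was not tested between genotypes in forebrain.

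Levels can be compared between genes only per length. On the TPM of full-length coding transcripts, Grin1 led in every region, at median levels of 23.6 (forebrain), 33.6 (midbrain) and 11.7 (hindbrain). In forebrain Grin2b (median 5.41), Grin2a (4.82) and Grin2c (4.70) followed without separating, then Grin3a (2.41), Grin2d (0.89) and Grin3b (0.03), each below its neighbour in 6 of 6 libraries. In midbrain Grin2b (7.33), Grin2c (6.22), Grin2a (6.10) and Grin3a (4.84) had overlapping ranges, although Grin3a was below Grin2a in 6 of 6 libraries, and Grin2d (1.90) and Grin3b (0.07) followed apart. In hindbrain Grin2c (7.60) was second and apart from the rest, followed by Grin3a (2.36), Grin2a (1.16) and Grin2d (0.90), of which the last 2 overlapped, and by Grin2b (0.47) and Grin3b (0.16).

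The Grin2 genes thus divided differently in hindbrain. Of their summed full-length TPM, Grin2c held 61.7% to 80.7% in hindbrain (median 74.7%), against 21.4% to 37.8% in forebrain and 24.0% to 39.4% in midbrain. Grin2b held 2.87% to 7.25% in hindbrain, 22.2% to 38.7% in forebrain and 23.6% to 36.0% in midbrain. Grin2a held 9.07% to 20.2%, 26.8% to 34.8% and 25.9% to 31.1% in the same order. Grin2d held 7.29% to 16.1% in hindbrain, 5.18% to 6.86% in forebrain and 6.24% to 14.1% in midbrain. For Grin2a, Grin2b and Grin2c no hindbrain library overlapped the others.

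Within mice forebrain minus hindbrain was -42.0 ± 11.2 percentage points for the Grin2c share and 27.9 ± 5.75 points for the Grin2b share on full-length TPM (SD, n = 6). Both had 1 direction in 6 of 6 mice, with p = 0.0312 by the exact sign-flip permutation test. After adjustment over the 18 ratio and share tests the p was 0.0625, so 0 of 18 passed on this scale and 0 of 18 on the deposited counts per effective length. On the latter, the measure planned as the main one and the one that takes in Grin2b-207, Grin2b held 73.4% to 85.8% of the Grin2 sum in forebrain, 44.0% to 78.4% in midbrain and 9.16% to 42.3% in hindbrain. Grin2c then held 37.9% to 71.0% in hindbrain and 6.69% to 11.3% in forebrain.

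**Figure D5:**
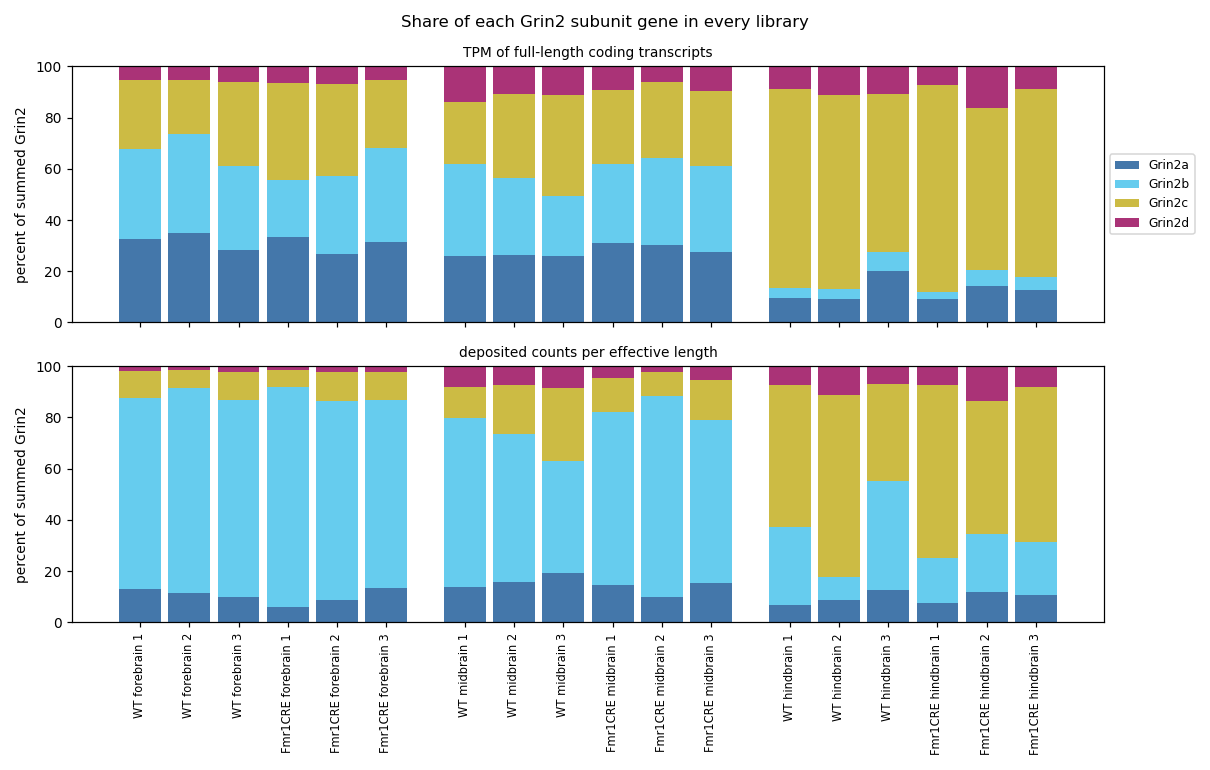
Percent of the summed Grin2 level held by Grin2a, Grin2b, Grin2c and Grin2d in each of the 18 libraries, from full-length coding TPM (top) and from deposited counts per effective length (bottom). Grin2c fills 61.7% to 80.7% of the hindbrain bars on top, and the Grin2b part of the forebrain bars is 22.2% to 38.7% on top but 73.4% to 85.8% below.

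The Grin2a to Grin2b ratio was 0.85 to 1.496 in forebrain, 0.72 to 1.10 in midbrain and 2.25 to 3.17 in hindbrain on full-length TPM, with the hindbrain apart. The within-mouse log2 difference was -1.42 ± 0.21 for forebrain over hindbrain and -1.53 ± 0.18 for midbrain over hindbrain, both in 6 of 6 mice, p = 0.0312 and adjusted p = 0.0625 by the exact sign-flip permutation test. Forebrain over midbrain was 0.11 ± 0.32, exact p = 0.375. By deposited counts per effective length the ratio was 0.07 to 0.18, 0.13 to 0.44 and 0.23 to 0.95, with log2 differences of -1.79 ± 0.92, -0.93 ± 0.98 and -0.86 ± 0.70 for the same comparisons, and the last had the other sign. The ratio of Grin1 to the Grin2 sum was 1.37 to 1.59 in forebrain, 1.43 to 2.03 in midbrain and 1.002 to 1.60 in hindbrain on full-length TPM. Forebrain over hindbrain was 0.26 ± 0.31 on the log2 scale there, exact p = 0.188, but -1.12 ± 0.46 by deposited counts, exact p = 0.0312, adjusted 0.0625, and its sign depended on the measure.

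Between Fmr1CRE and WT mice 0 of the tested members passed in any region by edgeR's quasi-likelihood test. All 7 were tested except in forebrain, where Grin3b was filtered out and 6 remained. Over all genes 0%, 0.00543% and 0% were called, and 0%, 0.0109% and 0.00524% on summed reads, where again 0 members passed. DESeq2 also called 0 members in each region, beside 31 of 18467, 62 of 18400 and 59 of 19112 genes in forebrain, midbrain and hindbrain. At an unadjusted p under 0.05 there were 0 of 6 members in forebrain, 2 of 7 in midbrain and 0 of 7 in hindbrain, beside 5.43%, 6.17% and 5.13% of all genes. The genotypes did not overlap for 1 of 7 members in forebrain, 1 in midbrain and 0 in hindbrain, beside 10.3%, 11.3% and 10.9% of all genes. Without replicate 3 of both genotypes the unadjusted count was 3 of 6 in forebrain (Grin2c, Grin2d and Grin3a), beside 2545 of 18763 genes, and 3 of 7 in midbrain (Grin1, Grin2d and Grin3b), beside 2168 of 18434. Without Fmr1CRE replicate 3 alone it was 4 of 6 in forebrain, beside 3230 of 19075 genes. No member passed the adjusted threshold in these fits (edgeR). None of these counts is read as a result about the receptor genes.

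The 2 midbrain genes were Grin2d and Grin3b. Grin2d had 25.3, 25.1 and 32.5 CPM in Fmr1CRE and 55.4, 44.1 and 32.0 CPM in WT midbrain. The lowest WT library fell inside the Fmr1CRE range by counts, and on summed reads the genotypes did not overlap. The log2 fold change was -0.66 ± 0.20, adjusted p = 0.77 (edgeR). Grin3b had 0.326, 0.266 and 0.763 CPM in Fmr1CRE and 0.784, 1.51 and 1.16 CPM in WT midbrain, without overlap, at a log2 fold change of -1.36 ± 0.46, adjusted p = 0.783. Hindbrain and cerebellum markers summed to between 129 and 380.2 CPM in these Fmr1CRE libraries and between 197 and 381 CPM in the WT ones. Their part in the values was not tested.

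The non-overlapping gene of forebrain was Grin1, with 329, 353 and 346 CPM in Fmr1CRE and 315, 288 and 308 CPM in WT mice. The log2 fold change was 0.21 ± 0.09, adjusted p = 0.806, and 0.12 ± 0.10 on summed reads, where the genotypes overlapped. Grin2b in forebrain had 737, 458 and 339 CPM in Fmr1CRE and 346, 460.3 and 405 CPM in WT by deposited counts, and 182, 287 and 344 against 310.0, 349 and 294 CPM by reads. The first Fmr1CRE library was thus the highest on one scale and the lowest on the other. The log2 fold change was 0.38 ± 0.28 by counts and -0.20 ± 0.20 by reads, with intervals from -0.28 to 1.04 and from -0.66 to 0.26.

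For the other members the 95% intervals with all mice were as follows, and some moved with the third mouse of each genotype. Grin2a differed by -0.07 in forebrain (interval -0.35 to 0.21), 0.09 in midbrain (-0.26 to 0.44) and 0.02 in hindbrain (-0.31 to 0.34) on the log2 scale. Grin3a differed by -0.22 (-0.80 to 0.35), 0.04 (-0.17 to 0.24) and -0.02 (-0.35 to 0.30) in the same order, and the midbrain interval was the narrowest of any member in a single region. Grin2c differed by 0.32 (-0.08 to 0.73), -0.21 (-0.61 to 0.18) and 0.04 (-0.67 to 0.74). Grin1 differed by -0.27 (-0.75 to 0.22) in midbrain and -0.17 (-0.68 to 0.34) in hindbrain. Without replicate 3 the intervals of Grin2c in forebrain, 0.58 (0.19 to 0.97), Grin3a in forebrain, -0.58 (-1.07 to -0.09), and Grin1 in midbrain, -0.53 (-0.99 to -0.08), left out 0. Their adjusted p were 0.275, 0.324 and 0.378 (edgeR). In the same fit Grin2d in forebrain also had an unadjusted p under 0.05 and did not pass after adjustment (edgeR). With all mice Grin2d had 21.0, 24.3 and 17 CPM in Fmr1CRE forebrain (mean 20.8). In WT forebrain it had 16.1, 16.1 and 20.6 CPM (mean 17.6). In hindbrain its log2 fold change was 0.05.

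With the regions of a mouse summed, 0 of 7 members passed by edgeR, beside 0.00451% of all genes, and 1 of 7 had an unadjusted p under 0.05, beside 3.7%. That gene was Grin2b, with a log2 fold change of 0.48 ± 0.18, adjusted p = 0.998, by counts, and -0.07 ± 0.19 by reads. The interaction of genotype with region had 0 of 7 members past the threshold by edgeR, beside 0% of all genes, and 0 of 7 by DESeq2, which called 52 of 20363 genes. By edgeR 2 of 7 stood at an unadjusted p under 0.05, beside 7.54%. They were Grin2d and Grin3b, both with an adjusted p of 0.66 (edgeR). Without replicate 3 the same edgeR interaction test called 0 of 7 members, beside 131 of 20602 genes. In that fit 3 of 7 members had an unadjusted p under 0.05, beside 4076 genes. The lowest adjusted p of a member was 0.0755 (edgeR). The log2 Grin2a to Grin2b ratio differed between genotypes by -0.37, -0.64 and 0.29 in forebrain, midbrain and hindbrain by deposited counts and by 0.23, 0.04 and 0.06 on full-length TPM, with exact permutation p of 0.3 or above.

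Around the receptor, 50 genes of 4 lists were measured. All 12 scaffold genes, which anchor receptors in the postsynaptic density, were higher in forebrain than in hindbrain, with a median log2 fold change of 1.97 against -0.01 over all genes, of which 26.4% were higher and 25.3% lower. The largest were Dlgap2 at 3.84 ± 0.20 and Dlgap3 at 3.05 ± 0.17, which encode proteins that bind PSD-95. Of 18 signalling genes, 11 were higher, 0 lower and 7 not called, beside the same 26.4% and 25.3% of all genes, with a median of 1.33. Ptk2b, a calcium-responsive tyrosine kinase that acts on the receptor through Src, had 5.79 ± 0.20 and Camk2a, the alpha subunit of the calcium/calmodulin kinase of synapses, 5.73 ± 0.26. Of 12 trafficking and surface partners, 6 were higher and 4 lower, with a median of 0.36. Neto1, an auxiliary protein of glutamate receptors, had 2.60 ± 0.18 and Kif17, a motor that carries Grin2b cargo, 1.84 ± 0.12, whereas Reln had -0.61 ± 0.18 and Lin7a -0.36 ± 0.11. On summed reads the log2 fold change was -0.28 for Reln and -0.41 for Lin7a.

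The 8 genes of co-agonist supply split, with 3 higher and 5 lower in forebrain and a median of -0.52. Srr, which makes D-serine, was higher by 0.87 ± 0.10 and Gldc, of the glycine cleavage system, by 1.25 ± 0.15. Dao, which degrades D-serine, was lower by a log2 fold change of -5.74 ± 0.35 and Slc6a5, the neuronal glycine transporter of inhibitory terminals, by -9.82 ± 0.52. In sum 32 of 50 were higher and 9 lower in forebrain over hindbrain, beside 26.4% and 25.3% of all genes. In forebrain over midbrain they were 15 and 8, beside 9.38% and 9.96%, and in midbrain over hindbrain 34 and 6, beside 25.1% and 24%. Between genotypes 0 of 50 passed in midbrain, in hindbrain, over summed regions and in the interaction, and 0 of 48 tested in forebrain, by edgeR.

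Across the 18 libraries, the genes whose log2 CPM followed a member most closely by Pearson's r were Eif4g3 (0.986), Unc5a (0.967) and Lrfn4 (0.962) for Grin1 and Cacna2d1 (0.995), Opcml (0.994) and Ptk2b (0.993) for Grin2a. For Grin2b they were Raver2 (0.967), 4921539H07Rik (0.966) and Homer1 (0.965), and for Grin2c Rhbdf2 (0.909), Mpp3 (0.894) and Serinc2 (0.893). Mast1 (0.921), Slc29a2 (0.921) and Ap3b2 (0.896) followed Grin2d, Tmx4 (0.984), Trpc5 (0.972) and Exoc2 (0.966) Grin3a, and Adssl1 (0.967), Gm12198 (0.957) and Prrxl1 (0.956) Grin3b. These values describe 18 libraries that share 3 regions and 6 mice, so they follow the regional pattern. They were taken on deposited counts only, which for Grin2b part from its reads.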

How the data were processed

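Poly(A) RNA from each region of each mouse was random primed and read as single-end 50-base reads, and the 18 libraries ran in pools whose members are not given in the sources used here. The authors quantified transcripts with Salmon (0.14.0 in the submitters' processing notes, beside DESeq2 1.30.1 and the mm10 build) within bcbio_nextgen. The gene counts they deposited are whole numbers that a recomputation matched, to within 0.18% per library, as summed transcript TPM times a gene's mean effective length, scaled to the library's reads. The deposited per-transcript sets hold expected counts (estimated reads) and TPM. The deposited variance-stabilised log2 values were not used, and 0 sample columns of the count table were left out.

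Symbols and positions came from GENCODE M21 (GRCm38). Deposited counts were tested with edgeR 4.0.16 in R 4.3.3 (TMM, default filter on low counts, quasi-likelihood test, Benjamini-Hochberg over all genes tested, threshold 0.05). CPM values use TMM factors over all 18 libraries. Full-length coding transcripts had at least 80% of the gene's longest coding sequence. Ratios and shares were compared within mice by exact two-sided sign-flip permutation tests and between genotypes by exact permutation tests. With 22455512 to 28061185 counts per library, spread between the libraries of a group limits the precision of the members. That spread takes in both mice and quantification, which were not told apart, and for Grin2b it differed between counts and reads. For Grin3b, with 3 to 139 counts, the part of depth in it was not tested. The regions of a mouse are paired by the mouse number in the titles. The correlation of their deviations from group means ran from -0.17 to 0.18, and the blocked fit is an alternative, beside DESeq2 1.42.0, other scalings and filters, and leaving out mice. Estimated reads were rounded to whole numbers for the summed-read fits. The fits were tested on simulated data.

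The 7 members, the pathway and marker lists and the tests were chosen with earlier results of these data known. Named were all members, up to 2 list genes per direction with the largest log2 fold change called between forebrain and hindbrain, list genes called between genotypes, and the 3 genes most like each member (prior count 2).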

Additional observations from a re-analysis of the deposited data

How the results depend on the processing

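The summed-read and full-length alternatives and the Grin1 segment shares were chosen after seeing the data. In Fmr1CRE mice alone 0 members were called between forebrain and midbrain, and Grin1 (0.17) and Grin2c (0.21) changed sign there, while in WT mice alone Grin3a changed sign between forebrain and hindbrain (0.078). None of these 3 was called. Summed reads turned the genotype log2 fold change of Grin2b in forebrain (-0.20) and over summed regions (-0.068) and of Grin3b in hindbrain (0.039). Full-length transcripts turned the log2 Grin2a to Grin2b ratio of forebrain over midbrain (0.11), the Grin2a share between them (3.33 points) and the genotype difference of the ratio in forebrain (0.23) and midbrain (0.035). For the log2 ratio of Grin1 to the Grin2 sum, full-length transcripts gave 0.26 for forebrain and 0.40 for midbrain over hindbrain, and lengths of the longest transcript 0.21 and 0.44. The latter also turned the Grin2d share of midbrain over hindbrain (2.35 points). Grouping transcript sets by sample record gave forebrain over hindbrain, forebrain over midbrain and midbrain over hindbrain differences of 2.95, 1.498 and 1.45 points for N1, -1.69, -2.05 and 0.36 for C1, and -2.23, -5.196 and 2.97 for C2', with none past the threshold.

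Leaving out mice gave, in the same order of regions, N1 differences of -37.4 to -32.4, -14.0 to -11.2 and -23.4 to -21.0 points, C1 differences of 46.7 to 50.8, 16.4 to 20.1 and 28.2 to 31.2 points, and C2' differences of -24.4 to -20.3, -19.6 to -14.7 and -6.30 to -3.64 points. No p could pass there, because 5 mice allow no sign-flip p below 0.0625. Uncalled genotype log2 fold changes that crossed 0 were, in forebrain, Grin2a (-0.23 to 0.0074), Grin2b (-0.0049 to 0.62) and Grin3a (-0.58 to 0.0023), in midbrain Grin2a (-0.055 to 0.19) and Grin3a (-0.015 to 0.10), and in hindbrain Grin2a (-0.053 to 0.16), Grin2c (-0.24 to 0.21), Grin2d (-0.15 to 0.26) and Grin3a (-0.10 to 0.15). Over summed regions they were Grin1 (-0.16 to 0.047), Grin2a (-0.057 to 0.11), Grin2c (-0.049 to 0.10) and Grin3a (-0.093 to 0.048). Between regions they were Grin2d (-0.29 to 0.013) and Grin3a (-0.23 to 0.078) in forebrain over hindbrain and Grin1 (-0.16 to 0.025) and Grin2c (-0.11 to 0.070) in forebrain over midbrain, besides the Grin2a share of forebrain over hindbrain (-0.45 to 1.41 points) and the log2 Grin2a to Grin2b ratio between genotypes in hindbrain (-0.13 to 0.91).

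With the mouse as a replicate block, 6 of 7 members were called between midbrain and hindbrain, beside 9725 of 20363 genes. Grin2c was lost (-0.52, adjusted p = 0.0566, edgeR), and no other member's call changed. Between genotypes replicates share only a number, with deviations correlating from -0.12 to 0.07, and the block gave 0 members in each region. DESeq2 called 31, 62 and 59 of all genes between genotypes in forebrain, midbrain and hindbrain, 26 over summed regions and 52 in the interaction, against 0, 1, 0, 1 and 0 by edgeR, with 0 members in each. In the Fmr1CRE or WT mice alone Grin2c missed the threshold between forebrain and hindbrain, adjusted p = 0.103 and 0.0505, and in WT mice alone between midbrain and hindbrain (-0.42, adjusted p = 0.231). The cause of these changes was not tested. Grin3b had 3 to 139 counts, and the part of depth in its spread was not tested.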
